A study of Mus musculus with 6 samples.

Results

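The genes described here are those of the 3 immunoglobulin loci of the mouse, which encode antibody heavy chains (Igh), kappa light chains (Igk) and lambda light chains (Igl). They were found by gene symbol: variable (V), diversity (D) and joining (J) segments and constant region genes. The rule gave 262 of the 22298 listed genes. The heavy chain locus supplied 115 V, 17 D and 4 J segments and 8 constant genes, the kappa locus 100 V and 5 J segments and 1 constant gene, and the lambda locus 3 V and 5 J segments and 4 constant genes.

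RNA-seq libraries came from thymocytes of C57BL/6 mice, labelled double-negative (DN) in the sample names and DN2, the second stage of that population, in the sorting protocol. Toxf/f mice carry Tox, the gene of a nuclear factor of T cell development, between recombination sites, and Toxf/fPdcd1Cre mice also carry Cre recombinase, which cuts out DNA between such sites, under a name that refers to Pdcd1, the gene of the receptor PD-1. Both genotypes share the Toxf/f alleles, none of these samples carried Cre without them, and so the presence of Cre and the loss of Tox cannot be told apart. There were 3 untreated samples of each genotype. Age was 3 weeks for replicates 1 and 2, and 4 weeks for replicate 3. Toxf/f replicates 1 and 2 were deposited with identical values and were counted as 1 library, which is called the shared Toxf/f library below. This left 2 Toxf/f libraries to set against 3 Toxf/fPdcd1Cre libraries. No label says that replicates came from separate animals. The 2 Toxf/f libraries differ in age, and the 3 Toxf/fPdcd1Cre libraries differ in age or in counts of a chromosome Y gene given below. They are therefore not repeat libraries of 1 sample. P-values reflect library-to-library spread alone, and that spread includes the difference in age.

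Depth and labels were checked first. The libraries held 14245492 to 16199195 estimated counts each. Tox had 1896 and 1746 counts in Toxf/f and 281, 257 and 201 in Toxf/fPdcd1Cre libraries, and fell by 2.78 on the log2 scale (adjusted p = 6.72e-06, edgeR). By mean level, the coreceptor gene Cd8a was the gene of rank 26 and Cd4 that of rank 105, which goes against a pure double-negative population, so DN is used here only as a label. Toxf/fPdcd1Cre replicate 1 had 1 count of the chromosome Y gene Ddx3y, against 843 to 1354 in the other 4 libraries.

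A B cell builds a heavy chain variable exon by joining a V, a D and a J segment, and a light chain variable exon by joining a V and a J segment; splicing then attaches a constant region. The first constant regions used are mu (Ighm) and delta (Ighd), and class switching later replaces them with gamma, epsilon or alpha. The thymus holds a small resident B cell population, and developing T cells are known to transcribe the unrearranged heavy chain locus, which gives Ighm RNA without a V segment. In bulk RNA, fewer cells of a type and less RNA per cell cannot be told apart.

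The V segments that fell are shown by the last 60 bases of their annotated transcript, since this end reaches the joining site. Capitals mark the codon of the conserved cysteine, after which the hypervariable loop that the J segment completes begins. The heavy and kappa segments were, 5′ to 3′ on the coding strand (GENCODE M21, GRCm38):
Ighv5-4: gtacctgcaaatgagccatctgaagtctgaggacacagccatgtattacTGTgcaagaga
Igkv10-96: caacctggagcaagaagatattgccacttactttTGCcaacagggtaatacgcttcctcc
Igkv1-110: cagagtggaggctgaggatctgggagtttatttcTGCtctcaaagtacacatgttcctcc
Igkv8-30: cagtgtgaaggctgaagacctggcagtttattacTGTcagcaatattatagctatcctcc
Igkv4-59: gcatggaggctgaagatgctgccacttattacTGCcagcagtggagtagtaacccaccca
Igkv14-111: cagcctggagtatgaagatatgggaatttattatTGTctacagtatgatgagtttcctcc
Igkv6-32: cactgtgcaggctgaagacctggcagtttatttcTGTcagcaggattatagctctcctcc
Igkv12-46: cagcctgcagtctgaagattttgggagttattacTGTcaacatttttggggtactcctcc
Igkv4-72: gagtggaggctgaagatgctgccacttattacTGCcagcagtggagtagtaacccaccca

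Both lambda V segments that fell are near copies of each other, identical over 96.7% of their aligned length:
Iglv1: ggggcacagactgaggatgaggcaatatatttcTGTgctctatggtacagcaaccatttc
Iglv2: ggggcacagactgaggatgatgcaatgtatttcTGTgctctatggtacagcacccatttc

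Relatives of this kind limit what a count can say about a single segment. Igkv10-96 was 95.4% identical to Igkv10-94, Igkv4-59 was 95.4% identical to Igkv4-72, and Igkv1-110 was 97.5% identical to Igkv1-117. Of the 262 genes, 15 had an estimated count that was not whole, 5 of them among the genes tested. How the authors' counting divided reads between such copies is not given in the sources used here, so values of single V segments are uncertain in that respect.

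Of the 262 genes, 88 were at 0 in every library and 174 had an estimated count above 0 in at least 1 library. All 31 D and J segments were at 0. Their annotated lengths were 10 to 29 bases for D and 38 to 54 bases for J segments, against 278 to 501 bases for V segments. A low-count filter left 39 genes for testing, and 135 with counts above 0 did not pass it. Those 39 passed mostly through their counts in Toxf/f libraries, so the share of them that fell says nothing by itself.

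At an adjusted p under 0.05 (edgeR), 20 immunoglobulin genes fell in Toxf/fPdcd1Cre libraries and 0 rose, while 19 tested genes did not pass. Among all 14121 genes tested, 1.51% fell and 0.135% rose. At an unadjusted p under 0.05, 35 immunoglobulin genes were lower and 0 higher, against 7.26% and 3.08% of all tested genes. No immunoglobulin gene was called higher by DESeq2, limma-voom or any other alternative run. For 36 of the 39, every Toxf/fPdcd1Cre library was below both Toxf/f libraries, a pattern that 13.5% of all tested genes showed. Since the filter kept the 39 mostly through their Toxf/f counts, this pattern and the lack of genes that rose say nothing by themselves. The shares over all tested genes were not matched for that or for count level. The 20 were 9 of 12 tested constant genes and 11 of 27 tested V segments. The median log2 fold change of all tested genes was 0.03.

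**Figure D1:**
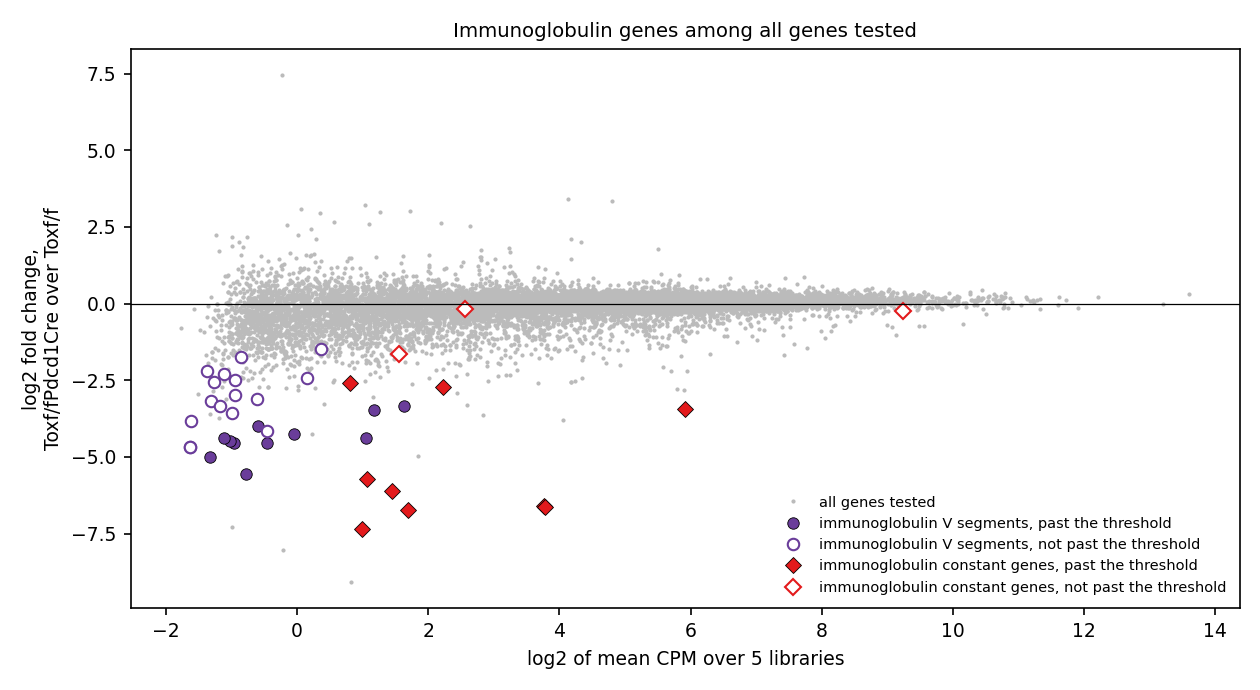
Log2 fold change, Toxf/fPdcd1Cre over Toxf/f, against log2 of the mean CPM (counts scaled to library size) over 5 libraries; each grey point is 1 of 14121 tested genes, purple circles are V segments, red diamonds are constant genes, and filled symbols passed an adjusted p of 0.05. The 39 immunoglobulin genes all lie below 0, Ighm and Ighd just below it; the points of Igha and Ighg2b coincide near -6.62.

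Ighm, the mu constant gene (chromosome 12, 113418558 to 113422730, minus strand), was the most abundant immunoglobulin transcript in every library and ranked 190 among all genes. It had 11622 and 9718 counts in Toxf/f libraries and 7299, 9916 and 8193 counts in Toxf/fPdcd1Cre libraries. The ranges overlapped, since Toxf/fPdcd1Cre replicate 2 lay above Toxf/f replicate 3. Mean levels were 665 ± 112 CPM (SD, n = 2) against 565 ± 67.1 CPM (SD, n = 3), a log2 fold change of -0.23 ± 0.16 SE that did not pass the test (adjusted p = 0.715, edgeR). Ighd, the delta constant gene that is spliced from the same primary transcript, had 91 and 115 against 80, 81 and 90 counts. Its log2 fold change was -0.19 ± 0.26 SE (adjusted p = 0.906, edgeR), and its libraries lay close together in both genotypes.

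The 6 switched constant genes, which lie downstream of Ighm and Ighd on chromosome 12 in the order Ighg3, Ighg1, Ighg2b, Ighg2c, Ighe and Igha, all fell. Igha, of the mucosal antibody class IgA, had 556 and 533 counts in Toxf/f and 3, 3 and 9 in Toxf/fPdcd1Cre libraries, and its log2 fold change was -6.62 ± 0.33 SE (adjusted p = 3.19e-06, edgeR). Ighg2b, a gamma class, had 563 and 518 against 1, 5 and 9 counts. Both genes were thus steady between the Toxf/f libraries and close to 0 in all 3 Toxf/fPdcd1Cre libraries. Ighg2c, the gamma gene that C57BL/6 mice carry next to Ighg2b, had 128 and 87 against 2, 0 and 2 counts. Ighe, of the IgE class linked to allergy, had 88 and 71 against 1, 0 and 0 counts. These 4 genes kept an adjusted p under 0.05 (edgeR) whichever library was left out.

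The other pair of gamma genes differed between the Toxf/f libraries themselves. Ighg1 had 208 counts in the shared Toxf/f library and 43 in Toxf/f replicate 3, against 2, 1 and 0 counts in Toxf/fPdcd1Cre libraries. Ighg3 had 117 and 46 against 3, 1 and 0 counts. Both were higher in the shared library than in replicate 3, Ighg1 at 13.3 against 2.59 CPM and Ighg3 at 7.49 against 2.77 CPM. Both were far lower in every Toxf/fPdcd1Cre library. Ighg1 fell by 6.73 ± 0.86 SE and Ighg3 fell by 5.72 ± 0.74 SE on the log2 scale (adjusted p = 0.00276 and 0.00299, edgeR). Without the shared library the log2 fold changes were -5.11 and -4.83 and neither call held (adjusted p = 0.0962 and 0.114, edgeR). Ighg1 also missed the threshold with limma on log2(FPKM + 1) (adjusted p = 0.0682).

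**Figure D2:**
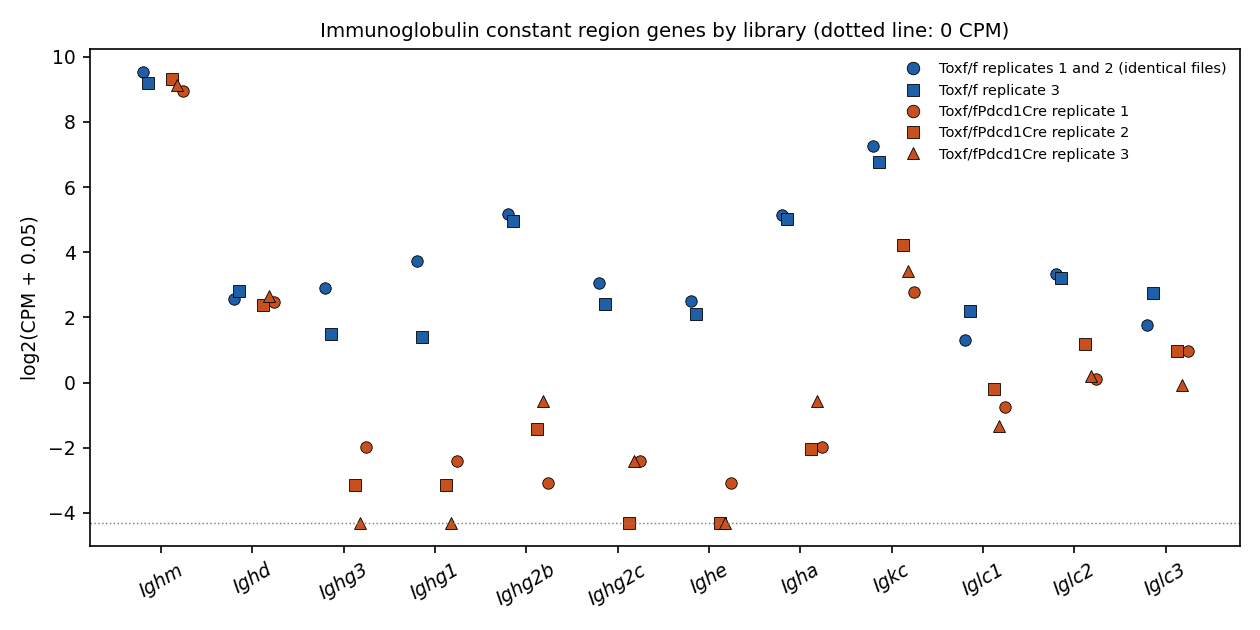
Level of each detected constant region gene in each library as log2(CPM + 0.05), blue for the 2 distinct Toxf/f libraries and orange for the 3 Toxf/fPdcd1Cre libraries; the dotted line marks 0 CPM. Ighm and Ighd sit at similar heights in both genotypes, the 6 switched heavy chain genes are separated most, and the light chain genes lie between.

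Scaled to gene length, the order of the constant genes in Toxf/f libraries began with Ighm at a mean of 440 FPKM and Igkc at 255 FPKM. Igha at 30.8 and 28.4 FPKM and Ighg2b at 28.6 and 23.2 FPKM overlapped and followed, and Ighe at 4.15 and 3.22 FPKM was among the lowest. In Toxf/fPdcd1Cre libraries Ighm averaged 355 FPKM and Igkc 22.2 FPKM. There Iglc3 at 3.45, Ighd at 3.31, Iglc2 at 2.4 and Iglc1 at 1.24 FPKM stood above every switched gene, the highest of which was Ighg2b at 0.267 FPKM. This order is a description with no test.

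The class composition of heavy chain constant counts followed from these values. Switched genes made up 12.4% (95% Wilson interval 11.9 to 13.0) and 11.7% (11.1 to 12.3) of them in Toxf/f libraries. In Toxf/fPdcd1Cre libraries the share was 0.162% (0.0929 to 0.284), 0.0999% (0.0543 to 0.184) and 0.241% (0.156 to 0.372). Intervals here cover counting error only. Ighm held 86.9% and 87.3% of heavy chain constant counts in Toxf/f and 98.7% to 99.1% in Toxf/fPdcd1Cre libraries. Summed, switched genes had 1660 and 1298 counts against 12, 10 and 20, a mean level 97.7-fold lower, and 82.8-fold to 127-fold lower with any 1 library left out.

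Within the switched counts of Toxf/f libraries, Igha took 33.5% and 41.1% and Ighg2b took 33.9% and 39.9%. The share of Ighg1 was 12.5% (11.0 to 14.2) in the shared library and 3.31% (2.47 to 4.43) in replicate 3, intervals that do not overlap. With 10 to 20 switched counts per Toxf/fPdcd1Cre library, the mix of classes there was not resolved: the interval for Igha in replicate 2 ran from 10.8% to 60.3%.

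**Figure D3:**
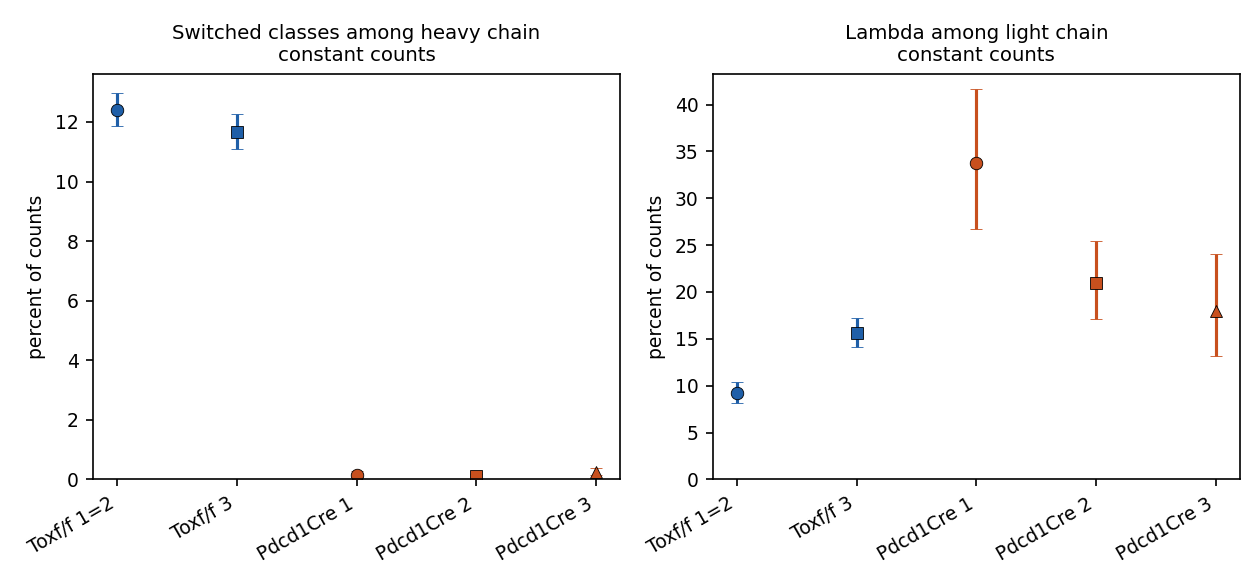
Percent of heavy chain constant counts that came from switched genes (left) and percent of light chain constant counts that came from lambda genes (right), per library, with 95% Wilson intervals that cover counting error only. The switched share is near 12% in both Toxf/f libraries and under 1% in all 3 Toxf/fPdcd1Cre libraries, while the lambda share is lowest in the shared Toxf/f library and highest in Toxf/fPdcd1Cre replicate 1.

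Igkc, the single kappa constant gene (chromosome 6, 70726435 to 70726966, plus strand), fell less far than the switched genes. It had 2419 and 1830 counts in Toxf/f and 100, 294 and 155 counts in Toxf/fPdcd1Cre libraries. The ranges were wide apart, and Toxf/fPdcd1Cre replicate 2 was the highest of its genotype. The mean was 133 ± 31.6 CPM (SD, n = 2) against 12.1 ± 6.09 CPM (SD, n = 3), a log2 fold change of -3.45 ± 0.31 SE (adjusted p = 0.000325, edgeR), and the call held whichever library was left out. Against 100 counts of Ighm there were 20.8 and 18.8 counts of Igkc in Toxf/f libraries and 1.37, 2.97 and 1.89 in Toxf/fPdcd1Cre libraries.

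Of the 4 lambda constant genes (chromosome 16), 2 fell. Iglc2 had 156 and 152 counts against 15, 35 and 16, a log2 fold change of -2.71 ± 0.36 SE (adjusted p = 0.00301, edgeR). Iglc1 had 38 and 76 counts against 8, 13 and 5, a log2 fold change of -2.59 ± 0.51 SE (adjusted p = 0.0277, edgeR). Neither held without 1 or the other Toxf/f library (Iglc2 adjusted p = 0.0836 and 0.0914, Iglc1 0.113 and 0.539, edgeR), and leaving out Toxf/fPdcd1Cre replicate 3 ended the call of Iglc1 as well (adjusted p = 0.105, edgeR), as did age as a covariate (0.101). Iglc3 had 52 and 110 counts against 28, 30 and 13 and did not pass (log2 fold change -1.66 ± 0.44 SE, adjusted p = 0.111, edgeR). Iglc4 was at 0 in every library.

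Iglc2 and Iglc3 were 94.5% identical over the aligned length, and reads can be shared between them. The stretch below from each constant exon shows how little separates them, with the 5 differing bases in capitals:
Iglc2: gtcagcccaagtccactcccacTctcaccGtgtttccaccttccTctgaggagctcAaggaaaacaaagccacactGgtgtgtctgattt
Iglc3: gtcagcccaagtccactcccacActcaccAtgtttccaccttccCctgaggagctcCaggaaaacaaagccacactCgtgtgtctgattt
Iglc3 made up 21.1% and 32.5% of lambda constant counts in Toxf/f libraries and 54.9%, 38.5% and 38.2% in Toxf/fPdcd1Cre libraries, so its share was higher in all 3 of the latter, but the intervals of replicates 2 and 3 (28.4 to 49.6 and 23.9 to 55.0) overlapped that of Toxf/f replicate 3 (27.8 to 37.7). The annotated span of Iglc2 also overlaps Iglj2, the only overlap among the 262 genes.

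Lambda genes as a whole took 9.23% (8.19 to 10.4) and 15.6% (14.1 to 17.2) of light chain constant counts in Toxf/f libraries. The share was 33.8% (26.7 to 41.6), 20.97% (17.1 to 25.4) and 18.0% (13.2 to 24.1) in Toxf/fPdcd1Cre libraries. All 3 values were above both Toxf/f values, but the intervals of replicates 2 and 3 overlapped that of Toxf/f replicate 3, and the interval of replicate 1 alone lay clear of both Toxf/f libraries. Counted over V segments in place of constant genes the pattern was absent: lambda took 9.49% and 20.2% of light chain V counts in Toxf/f and 15.2%, 12.5% and 14.3% in Toxf/fPdcd1Cre libraries.

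Summed over each segment class, V segments were lower in every Toxf/fPdcd1Cre library. Heavy V segments had 350 and 325 counts in Toxf/f and 27, 59 and 43 counts in Toxf/fPdcd1Cre libraries, a mean level 7.35-fold lower (20.99 ± 2.002 CPM, SD, n = 2, against 2.86 ± 0.965 CPM, SD, n = 3). Kappa V segments had 897 and 750 against 28, 133 and 66 counts, 10.3-fold lower and 15.9-fold lower without Toxf/fPdcd1Cre replicate 2. Lambda V segments had 94 and 190 against 5, 19 and 11 counts, 11.3-fold lower. In all 3 loci Toxf/fPdcd1Cre replicate 2 had the most V counts of its genotype and replicate 1 the fewest. These sums were not tested. Lambda constant genes, with 246 and 338 against 51, 78 and 34 counts, were 5.02-fold lower.

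**Figure D4:**
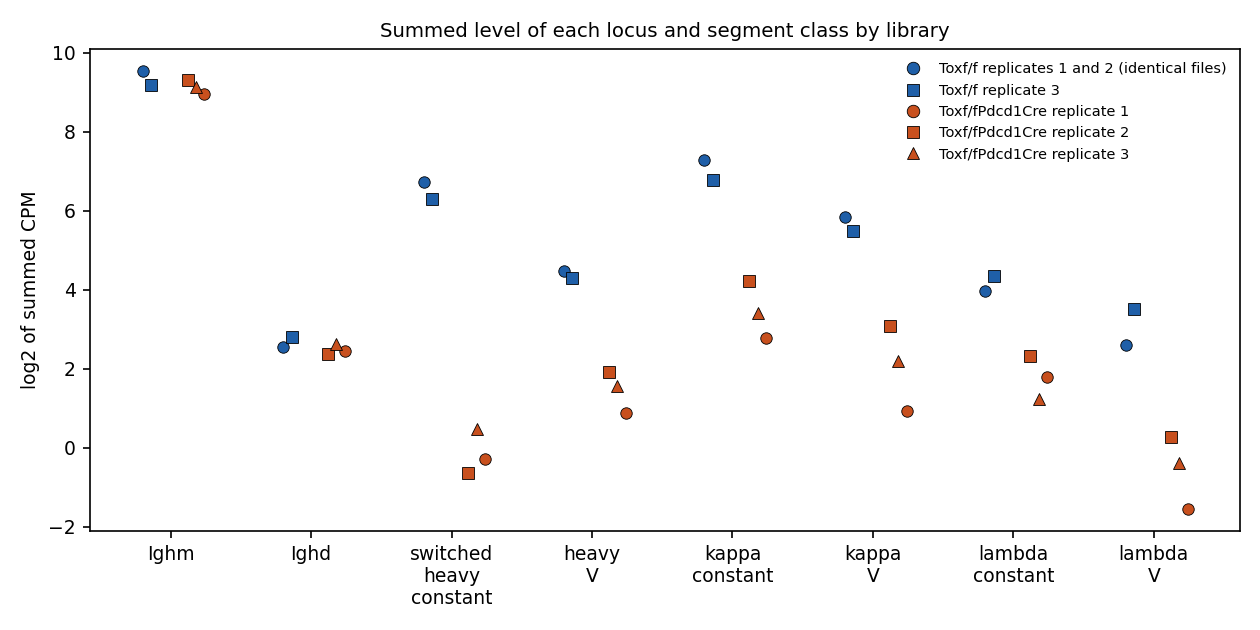
Log2 of the summed CPM of each locus and segment class in each library, blue for Toxf/f and orange for Toxf/fPdcd1Cre. Ighm and Ighd lie together across genotypes, the switched heavy chain genes are 97.7-fold apart by mean level, and the V and light chain classes are 5.02-fold to 11.3-fold apart, with Toxf/fPdcd1Cre replicate 2 the highest of its genotype in the V classes.

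The ratio of V to constant counts differed between loci. Against 100 counts of Igkc there were 37.1 and 41.0 counts of kappa V segments in Toxf/f and 28.0, 45.2 and 42.6 in Toxf/fPdcd1Cre libraries, ranges that overlapped. Against 100 counts of Ighm there were 3.01 and 3.34 counts of heavy V segments in Toxf/f and 0.370, 0.595 and 0.525 in Toxf/fPdcd1Cre libraries, ranges that did not. Set against 100 switched constant counts the same heavy V counts went the other way, with 21.1 and 25.04 in Toxf/f and 225, 590 and 215 in Toxf/fPdcd1Cre libraries, where switched genes had 10 to 20 counts. Against 100 lambda constant counts there were 38.2 and 56.2 lambda V counts in Toxf/f and 9.80, 24.4 and 32.4 in Toxf/fPdcd1Cre libraries.

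Fewer different V segments had a count in Toxf/fPdcd1Cre libraries. Of 115 heavy V segments, 62 and 59 had a count in Toxf/f and 17, 25 and 21 in Toxf/fPdcd1Cre libraries. Of 100 kappa V segments, 73 and 72 had a count in Toxf/f and 19, 41 and 25 in Toxf/fPdcd1Cre libraries. Fewer V counts also leave fewer segments seen, and these numbers were not corrected for that. Of 118 V segments with counts in both Toxf/f libraries, 38 were at 0 in every Toxf/fPdcd1Cre library, while 1.19% of all genes with counts in both Toxf/f libraries were. Each of the 38 rested on few counts. The 118 were picked by their counts in Toxf/f libraries, and the share over all genes was not matched for count level. A difference between these shares is therefore not a result about V segments. Igkv4-70 had 7 and 23 counts against 0, 0 and 0, at least 13.9-fold lower by a floor of 3 counts over the genotype; it was chosen after its values were seen. Just 8 immunoglobulin genes had counts in Toxf/fPdcd1Cre libraries alone, with at most 3 counts each.

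Kappa V segments supplied 8 of the 11 V segments that fell, and 19 of the 27 V segments tested. Igkv10-96 had 73.73 and 82 counts in Toxf/f and 4, 4 and 2 counts in Toxf/fPdcd1Cre libraries, a log2 fold change of -4.39 ± 0.48 SE (adjusted p = 0.000719, edgeR). It is the only V segment whose call held whichever library was left out. Its near copy Igkv10-94, chosen after its values were seen, had 10.27 and 15 counts against 0, 1 and 0. Igkv1-110 had 72 and 89 counts against 3, 6 and 11, a log2 fold change of -3.46 ± 0.49 SE (adjusted p = 0.00461, edgeR), and lost its call without either Toxf/f library (adjusted p = 0.0826 and 0.154, edgeR). Both segments stood well above all other V segments of the kappa locus in Toxf/f libraries.

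The other 6 kappa V segments that fell had between 12 and 37 counts in each Toxf/f library. Igkv4-59 had 37 and 36 against 2, 3 and 0 counts, and Igkv8-30 had 21 and 25 against 0, 1 and 0. Igkv6-32 had 27 and 22 against 0, 1 and 3 counts, and Igkv14-111 had 18 and 17 against 0, 1 and 1. Igkv12-46 had 25 and 12 against 0, 1 and 1 counts, and Igkv4-72 had 24 and 14.77 against 0, 2 and 0. In all 6, Toxf/fPdcd1Cre libraries held at most 3 counts, and their log2 fold changes ran from -5.56 in Igkv8-30 to -3.98 in Igkv6-32 (adjusted p = 0.0125 to 0.0392, edgeR). Without Toxf/f replicate 3 none of the 6 passed, and without the shared Toxf/f library 5 did not pass and Igkv12-46 was too low to be tested. Igkv12-46 and Igkv14-111 were also lost without Toxf/fPdcd1Cre replicate 2 or 3 (adjusted p = 0.0656 to 0.0989, edgeR), Igkv6-32 without replicate 2 (0.0818) and Igkv4-72 without replicate 3 (0.130). With age as a covariate Igkv4-59 alone of the 6 passed, and with a replicate block Igkv6-32, Igkv12-46 and Igkv14-111 did not (adjusted p = 0.0975, 0.12 and 0.123, edgeR).

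Some of the most counted kappa V segments did not pass. Igkv1-135 had 34 and 34 counts in Toxf/f and 0, 26 and 8 in Toxf/fPdcd1Cre libraries, a log2 fold change of -1.49 ± 0.84 SE (adjusted p = 0.613, edgeR). Igkv1-117 had 28 and 43 against 0, 12 and 6 counts (adjusted p = 0.201, edgeR). In both, replicate 2 was highest and replicate 1 was at 0. Igkv5-43 had 40 and 13.6 against 0, 4 and 0 counts and Igkv14-126 had 34 and 11 against 0, 5 and 2 counts (adjusted p = 0.0648 and 0.144, edgeR). Igkv16-104, which was too low to be tested and was chosen after its values were seen, had 7 and 5 counts in Toxf/f and 16 in Toxf/fPdcd1Cre replicate 2 alone of its genotype.

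Heavy V segments were low and spread over many members. Of the 6 tested, Ighv5-4 fell, with 16 and 15 counts against 1, 0 and 0 (log2 fold change -5.00 ± 1.02 SE, adjusted p = 0.0329, edgeR). That call held without Toxf/fPdcd1Cre replicate 1 and was lost without any other single library, with age as a covariate and with a replicate block (adjusted p = 0.101 and 0.179, edgeR). Ighv11-2 had 22 and 9 counts in Toxf/f, 13 in Toxf/fPdcd1Cre replicate 2 and 0 in the other 2 libraries, and did not pass (adjusted p = 0.677, edgeR). Ighv1-19, with 12 and 17 against 1, 5 and 2 counts, Ighv2-9-1, with 16 and 12 against 0, 0 and 4, and Ighv1-82, with 12 and 15 against 4, 1 and 1, did not pass either (adjusted p = 0.234, 0.215 and 0.191, edgeR). Their libraries did not overlap between genotypes, but each rested on under 20 counts per library. Ighv2-9, with 22 and 7 against 1, 0 and 0 counts, Ighv2-5, with 18 and 10 against 1, 1 and 1, and Ighv1-55, with 7 and 14 against 0, 1 and 4, were too low to be tested.

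Both tested lambda V segments fell. Iglv1 had 67 and 154 counts in Toxf/f and 4, 17 and 9 in Toxf/fPdcd1Cre libraries, a log2 fold change of -3.34 ± 0.51 SE (adjusted p = 0.00766, edgeR), and missed the threshold once Toxf/f replicate 3 was left out (adjusted p = 0.294, edgeR). Iglv2 had 22 and 34 against 0, 2 and 1 counts, a log2 fold change of -4.54 ± 0.80 SE (adjusted p = 0.0158, edgeR), and lost its call without the shared Toxf/f library, Toxf/f replicate 3 or Toxf/fPdcd1Cre replicate 3 (adjusted p = 0.131, 0.321 and 0.0564, edgeR) or with age as a covariate (0.0627). Iglv1 was the more counted of the pair in all 5 libraries, and it held 71.3% and 81.1% of lambda V counts in Toxf/f libraries. Iglv3, 61.0% identical to Iglv1, had 5 and 2 against 1, 0 and 1 counts and was not tested.

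By V family, the Ighv1 family held 35.9% of heavy V counts in Toxf/f libraries, with 116 and 126 counts against 19, 19 and 22. It is also the largest family, with 54 listed segments. The Ighv2 family followed with 16.6% and the Ighv5 family with 12.7%, the latter with 48 and 38 against 2, 3 and 1 counts. In the kappa locus the Igkv4 family held 24.0% and the Igkv1 family 19.7% of Toxf/f counts. In Toxf/fPdcd1Cre libraries the Igkv1 family held 32.2%, but from 3, 44 and 26 counts, which shows how much that share rests on replicates 2 and 3.

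V counts came from the whole length of the heavy and kappa loci in Toxf/f libraries. With V segments split at the middle of their order from the J segments, the nearer ones held 64.3% and 52.9% of heavy V counts in Toxf/f and 44.4%, 66.1% and 58.1% in Toxf/fPdcd1Cre libraries. For kappa the nearer ones held 46.7% and 36.8% in Toxf/f and 46.4%, 23.3% and 28.8% in Toxf/fPdcd1Cre libraries. In both loci the genotypes overlapped, in kappa through Toxf/fPdcd1Cre replicate 1 alone, with 13 of 28 counts (29.5 to 64.2). The kappa values of replicates 2 and 3 were below both Toxf/f values. The interval of replicate 2 (16.9 to 31.2) lay clear of both Toxf/f libraries. Of its 133 kappa V counts, Igkv1-135 had 26, Igkv16-104 had 16 and Igkv1-117 had 12, all among the farther segments. Its low share thus rests largely on few segments, which an interval for counting error does not cover. That of replicate 3 (19.3 to 40.6) overlapped that of Toxf/f replicate 3 (33.4 to 40.3). The 10 most counted segments held 39.4% and 40.9% of heavy V counts and 44.7% and 48.3% of kappa V counts in the Toxf/f libraries that were used to choose them. Across V segments, the counts of both Toxf/f libraries had a Spearman correlation of 0.62 over the 154 segments with a count in either, a description over segments that share these 2 libraries.

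**Figure D5:**
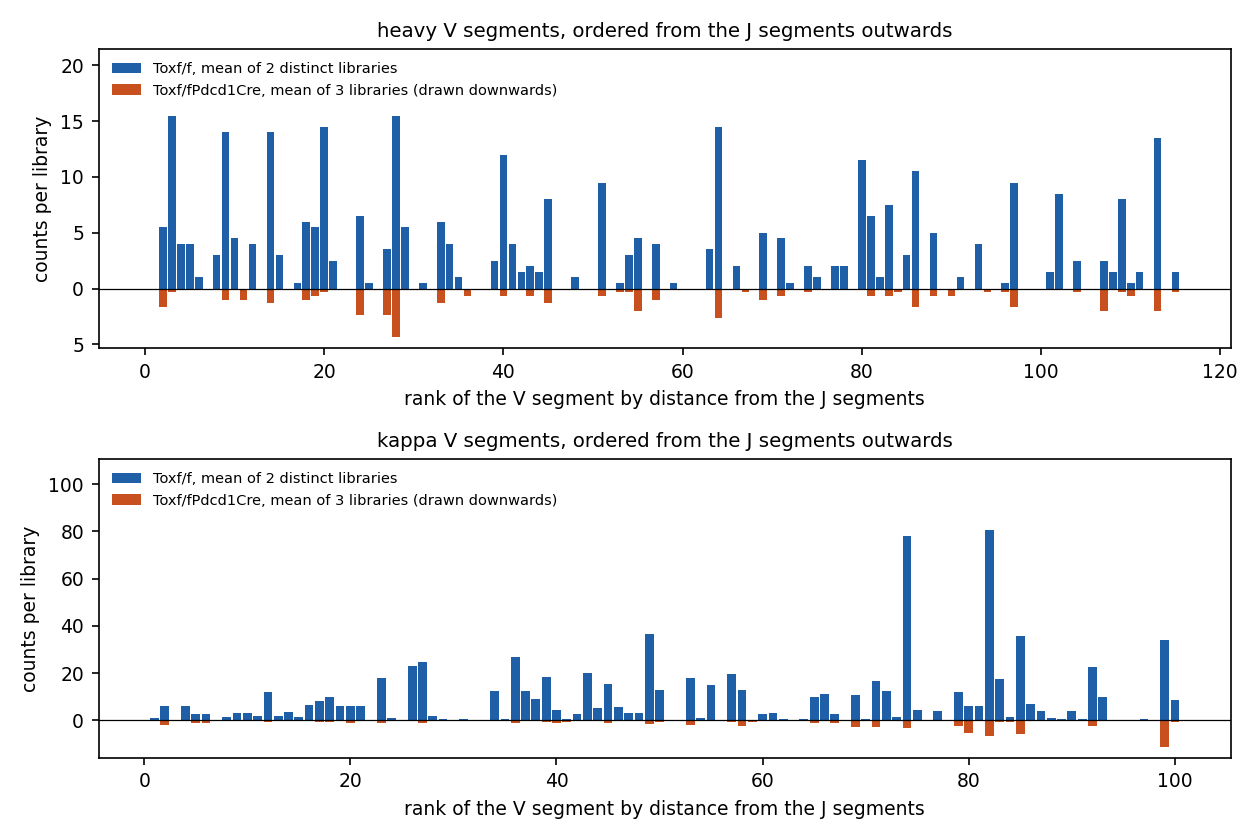
Mean counts per library of each heavy (top) and kappa (bottom) V segment, ordered by distance from the J segments; blue bars are the mean of 2 Toxf/f libraries and orange bars, drawn downwards from 0 on the same scale, the mean of 3 Toxf/fPdcd1Cre libraries. Heavy V counts are spread over many segments at up to 15.5 counts, and in the kappa locus the tallest blue bars are Igkv1-110 and Igkv10-96.

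Genes of the B lineage that lie outside these loci were counted from lists of known markers. Of 14 B cell identity genes, all 14 were tested, 1 fell and 0 rose. The one that fell, Fcer2a, which encodes a low-affinity IgE receptor of mature B cells, had 135 and 118.02 counts against 34, 13 and 18 (log2 fold change -2.43 ± 0.40 SE, adjusted p = 0.0107, edgeR) and lost its call without either Toxf/f library (adjusted p = 0.178 and 0.154, edgeR). The list's summed level was 124 and 170 CPM in Toxf/f and 108, 103 and 90.9 CPM in Toxf/fPdcd1Cre libraries, none of its genes was at 0, and its median log2 fold change was -0.55. The part of B cell number in the fall of the immunoglobulin genes was not tested.

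Of 13 plasma cell genes, 11 were tested, 1 fell and 0 rose, with a median log2 fold change of -0.06. The one was Jchain, whose product links IgA and IgM into polymers, with 613 and 597 counts against 17, 76 and 29 (log2 fold change -3.80 ± 0.38 SE, adjusted p = 0.000508, edgeR). As in Igkc and the V sums, replicate 2 was the highest Toxf/fPdcd1Cre library.

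Of 4 surrogate light chain genes, which stand in for a light chain in B cell precursors, 3 were tested, 0 fell and 1 rose. Igll1 had 6 and 5 counts in Toxf/f and 31, 32 and 37 in Toxf/fPdcd1Cre libraries, a log2 fold change of 2.68 ± 0.54 SE (adjusted p = 0.0315, edgeR), the opposite direction to the light chain loci. Its call held with Toxf/fPdcd1Cre replicate 1 left out and ended with any other single library left out (adjusted p = 0.0570 to 0.349, edgeR), and it passed in 10 of 18 alternatives. Of 10 genes of V(D)J recombination, the joining reaction itself, 0 passed in either direction. The most abundant were Rag1, of the recombinase, with log2 fold change 0.23, and Dntt, which adds bases at joints, with 0.26 (adjusted p = 0.738 and 0.714, edgeR). Of 10 T cell receptor genes 1 rose, Trdc, the delta chain constant gene, whose mean of 260 ± 57.2 CPM (SD, n = 3) stood against 143 ± 23.6 CPM (SD, n = 2) in Toxf/f (adjusted p = 0.0437, edgeR). Trdc was lost without the shared Toxf/f library, Toxf/f replicate 3 or Toxf/fPdcd1Cre replicate 3 (adjusted p = 0.192, 0.588 and 0.0666, edgeR), and passed in 10 of 18 alternatives.

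Markers of other cells that a thymus sort could hold were counted alike. Of 8 conventional dendritic cell genes 2 fell, Ccl22, a chemokine, and Flt3, a cytokine receptor (by edgeR, log2 fold change -2.81 and adjusted p = 0.00302 for the first, -1.05 and 0.0277 for the second). The list's summed level was 170 and 196 CPM against 69.9, 46.0 and 43.0 CPM. Ccl22 alone held 117 and 129 CPM of that sum in Toxf/f and 31.97, 10.15 and 10.66 CPM in Toxf/fPdcd1Cre libraries. The median log2 fold change of the list was -0.76. Ccl22 lost its call without either Toxf/f library (adjusted p = 0.0715 and 0.102, edgeR), as did Flt3 (0.115 and 0.394), which missed the threshold as well when Toxf/fPdcd1Cre replicate 3 was left out (adjusted p = 0.115, edgeR). Of 8 thymic epithelial genes 1 fell, the keratin gene Krt14 (log2 fold change -1.29, adjusted p = 0.0275, edgeR), which lost its call without the shared Toxf/f library, Toxf/f replicate 3 or Toxf/fPdcd1Cre replicate 3 (adjusted p = 0.115, 0.458 and 0.0795, edgeR). Of 8 monocyte, macrophage and neutrophil genes 0 passed, with Lyz2 at -1.12 and C1qb at -0.26 (adjusted p = 0.0539 and 0.503, edgeR). Lyz2 did pass in 7 of 18 alternatives. The summed level of this list was 918 and 758 CPM in Toxf/f and 443, 657 and 592 CPM in Toxf/fPdcd1Cre libraries. Lyz2 alone held 427 and 354 against 105, 214 and 218.5 CPM of that sum. Of 7 plasmacytoid dendritic cell genes 0 passed, with Tcf4 at -0.05 and Bst2 at -0.25 (adjusted p = 0.961 and 0.765, edgeR). These lists moved beside the immunoglobulin genes to the extent given, and their part in the result was not tested.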

How the data were processed

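RNA-seq was made from sorted thymocytes with the NEBNext Ultra kit, per the labels' protocols. For each sample the authors deposited 1 table with an expected count and an FPKM value per gene, per the file headers. The submitters' processing notes name HISAT2, StringTie 1.3.1 and fastp 0.18.0. What each tool did, which build and counter were used and whether strand was read is not given in the sources used here. In each library 8.81% to 9.84% of genes had a count that was not whole.

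Counts were rounded, filtered with filterByExpr, scaled by TMM and tested across 14121 genes with edgeR 4.0.16 (quasi-likelihood, R 4.3.3) as Toxf/fPdcd1Cre over Toxf/f without covariates, and p-values were adjusted by Benjamini-Hochberg at 0.05. The 6 samples gave 5 distinct libraries. CPM values use TMM-scaled library sizes, and FPKM values are as deposited. Positions and sequences come from GENCODE M21 (GRCm38), matched by identifier for all 262 genes. The files may rest on another build. Shares have 95% Wilson intervals. The floor for a count of 0 is 3 counts.

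Named were every constant gene, the 8 most abundant V segments of each locus, every segment past the threshold, and from each of 10 marker lists (96 genes) the genes past the threshold or otherwise the 2 most abundant. Some genes that this rule gave, and 1 list, are not reported here. The members and lists were chosen with earlier results of these data known. The test was checked on simulated counts. It recovered 71% of 200 genes changed 2-fold and 96% of 200 changed 4-fold, with 8 and 6 false calls. Changes were set only in genes with a mean of at least 1 CPM, which most V segments that fell did not reach. The check therefore does not cover those segments. Alternatives were other scalings and filters, DESeq2 1.42.0, limma 3.58.1 on counts and on log2(FPKM + 1), unrounded counts, age, the replicate number as block, a minimum log2 fold change of 1, the identical files counted as 2, and each library left out.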

Additional observations from a re-analysis of the deposited data

How the results depend on the processing

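Of the 20 immunoglobulin genes that fell, 18 to 20 also passed with RLE or upper-quartile scaling, no filter, DESeq2, limma-voom, limma on log2(FPKM + 1) and unrounded counts. The number that fell became 32 with no filter on low counts, 33 with limma on log2(FPKM + 1) and 12 with age as a covariate, and ran from 7 to 25 with 1 library left out, lowest without the shared Toxf/f library (7) and without Toxf/f replicate 3 (8). No immunoglobulin gene rose in any of these fits. The genes that passed whichever of the 5 libraries was left out were Igha, Ighg2b, Ighg2c, Ighe, Igkc and Igkv10-96. Over all genes, 232 changed, against 417 with no filter, 359 with DESeq2, 125 with age, 380 with the identical files counted as 2 libraries, and 31 to 606 with 1 library left out.

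With a replicate block 19 immunoglobulin genes fell, 16 of them among the 20, and 435 genes changed in all; the labels name no shared animal or litter, only an age that is the same for equal numbers, and deviations of the shared Toxf/f library correlated at -0.15, 0.07 and 0.13 with Toxf/fPdcd1Cre replicates 1, 2 and 3. Both identical files carry the number 2 in their column name; a replicate block with the shared library as number 2, chosen after seeing the data, gave 28 and 868. Tcf4, which passed in no fit, had a log2 fold change of -0.05, 0.050 with the replicate block, and -0.14 to 0.047 with 1 library left out. The switched share of heavy chain constant counts in Toxf/f was 12.0% by counts and 14.5% by FPKM. Depth limits V segments most: 135 genes with counts above 0 did not pass the filter, and a fit without 1 Toxf/f library rests on a single library of that genotype, assumed to vary like the other genotype.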
